A study of Mus musculus with 12 samples.

Results

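The metallothioneins Mt1 and Mt2, their transcriptional activator Mtf1 and the zinc transporters Slc30a1, Slc39a8 and Slc39a10 were followed in mouse bone marrow cells with and without a U2af1 knockout label. These 6 genes were chosen by symbol, with their fold changes between KO and WT in these data already known, and were taken from 24533 gene symbols, and all 6 were present with an adjusted p-value in both tables used. U2af1 encodes the small subunit of the factor that recognises the 3' splice site. The groups were LSK cells (the lineage-negative fraction positive for Sca-1 and c-Kit, which holds the stem cells) labelled U2af1KO, LSK cells labelled WT, lineage-negative marrow cells (LinNeg) labelled U2af1KO and LinNeg cells labelled WT, with 3 libraries each and 12 in all. All groups share the strain C57BL/6 and the tissue bone marrow, and the LSK samples carry the further label BMT, which is not spelled out. The sources used here do not give age, sex, how or in which cells U2af1 was deleted, or whether animals were pooled, and they do not say that the libraries of a group came from separate animals, so standard errors and p-values cover library-to-library spread only, part or all of which could be technical.

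Zinc is buffered inside cells by metallothioneins, small cysteine-rich proteins that bind zinc, copper and cadmium. When free zinc rises, the zinc-finger protein MTF1 binds metal response elements in promoters and switches on metallothionein genes and the exporter gene Slc30a1, while in mice it represses the importer gene Slc39a10. Transporters of the Slc30 family (ZnT) move zinc out of the cytosol, out of the cell or into organelles, and those of the Slc39 family (ZIP) move it into the cytosol. Metallothionein genes also respond to glucocorticoids and oxidative stress.

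The promoter windows of the metallothioneins and of Slc30a1 are shown because MTF1 is known to act on these genes through metal response elements. Sequences are from RefSeq (GRCm38.p6, the assembly behind mm10), plus strand, from 250 bases before the RefSeq start site. Those of Mt1 and Mt2 run on through 30 bases from the start site, and that of Slc30a1 ends just before it. Capitals mark the core of the element, TGCACNC or TGCGCNC, on either strand.
Mt1, chr8:94178839-94179118: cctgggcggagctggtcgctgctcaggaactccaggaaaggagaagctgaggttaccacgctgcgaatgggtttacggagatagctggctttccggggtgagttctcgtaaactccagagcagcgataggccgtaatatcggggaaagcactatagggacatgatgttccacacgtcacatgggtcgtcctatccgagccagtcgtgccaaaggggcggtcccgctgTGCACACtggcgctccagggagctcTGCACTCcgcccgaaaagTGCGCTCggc
Mt2, chr8:94172368-94172647: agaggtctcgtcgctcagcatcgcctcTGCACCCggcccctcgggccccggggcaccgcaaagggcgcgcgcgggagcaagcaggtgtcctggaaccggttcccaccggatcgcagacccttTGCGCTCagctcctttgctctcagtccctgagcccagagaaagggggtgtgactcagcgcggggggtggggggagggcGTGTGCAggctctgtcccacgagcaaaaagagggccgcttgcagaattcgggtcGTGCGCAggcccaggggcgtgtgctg
Slc30a1, chr1:191906531-191906780: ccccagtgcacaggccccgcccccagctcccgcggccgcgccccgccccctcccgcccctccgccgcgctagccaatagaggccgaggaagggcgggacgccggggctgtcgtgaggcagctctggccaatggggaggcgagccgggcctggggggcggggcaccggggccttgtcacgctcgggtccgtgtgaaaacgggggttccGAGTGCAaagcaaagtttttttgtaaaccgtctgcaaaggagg
The Mt1 window held 3 cores, the Mt2 window 4 and the whole 300-base Slc30a1 window 2, of which the second lies beyond the printed stretch, and none overlapped another. Of 32851 RefSeq promoter windows of 300 bases, 1.97% held at least 3 such cores, 0.517% at least 4 and 7.11% at least 2. The Mt1, Mt2 and Slc30a1 windows were 60.7%, 67.7% and 73.0% G or C, and among windows with at least 60% G or C those shares were 5.04%, 1.31% and 16.7%. The window of Mtf1 and both windows of Slc39a10 held 0 cores, as did the first Slc39a8 window, while its second held 1. For Slc39a10, GENCODE M21 places every start at least 32924 bases downstream of the start in the first window. The start at 46892852 lies in neither window, so its promoter was not searched. Mt3 and Mt4, which lie beside Mt2, held 1 each, which 25.7% of all windows did. These matches are letters in a window and not sites of binding. GENCODE M21 places further Mt1 transcript starts 122 and 152 bases downstream of the RefSeq start. It places the Mt2 starts 46 and 242 bases downstream, so the cores lie farther upstream of those starts. The windows hold only 50 bases from the RefSeq start on. The bases just before the starts at 122, 152 and 242 were thus not searched, and the counts of cores hold for the windows only.

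**Figure D1:**
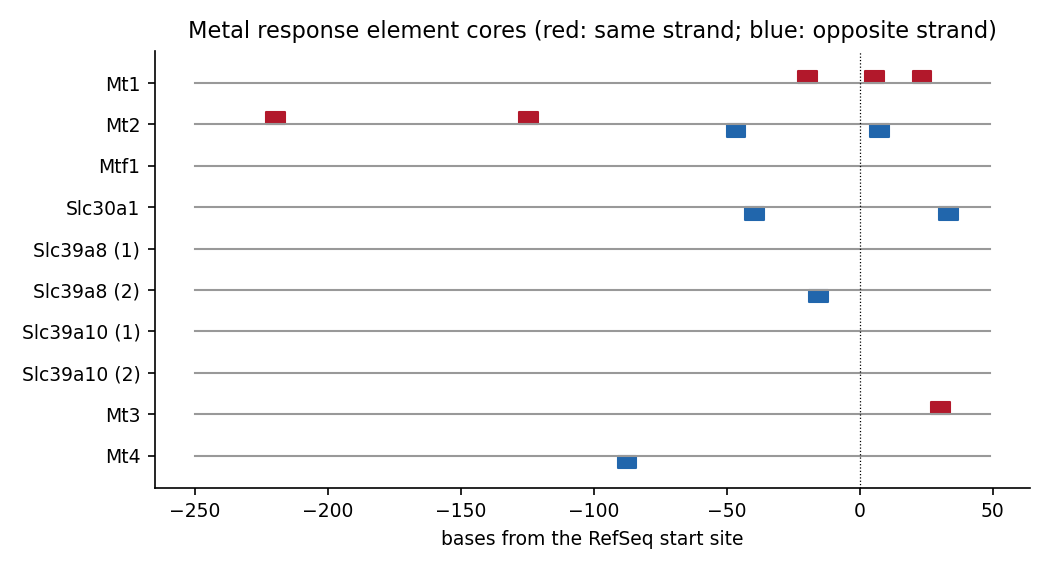
Positions of metal response element cores (TGCACNC or TGCGCNC) in 300-base RefSeq promoter windows, in bases from the RefSeq start site at 0; red blocks above a line are on the gene's strand and blue blocks below it on the opposite strand. The Mt2 window held 4 cores and the Mt1 window 3, against 2 for Slc30a1 and 0 or 1 in each other window shown.

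The authors deposited 2 tables, each a comparison of KO with WT libraries, for LSK and for LinNeg. Values of single libraries were not used here, so neither the depth of a library nor the overlap of groups can be given. All fold changes are KO over WT. Group means are in normalized counts and were derived from the authors' mean and fold change, taking 3 libraries on each side, and they carry no standard deviation. Each table has its own normalization, and levels are not compared between populations. Called means an adjusted p-value under 0.05 in the authors' DESeq2 test. Since the choice of the 6 genes used these contrasts, their values are a description and the calls among them support nothing.

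The label checks are mixed. U2af1 was higher under the KO label, with log2 fold changes of 0.61 ± 0.06 in LSK and 0.65 ± 0.19 in LinNeg (standard errors) in the authors' deposited table for each, which goes against the label. Which exons were deleted is not stated, and levels by exon were not analysed here, so the genotype could not be checked. KO and WT name the libraries by their labels throughout, and every direction given rests on those labels. Xist, expressed in female cells, was at 7.49 ± 0.94 in LSK and 10.02 ± 1.81 in LinNeg in the authors' deposited tables. The Y-linked Ddx3y, Eif2s3y, Uty and Kdm5d were at -9.21 to -8.95 in LSK and -0.91 to -0.68 in LinNeg, where none was called. Derived Xist means were 62360 in KO against 347 in WT LSK libraries and 41468 in KO against 40.0 in WT LinNeg libraries. Sex and genotype label therefore cannot be told apart in LSK, and in LinNeg they differ together at least in part. Kit and Ly6a (Sca-1), which define LSK cells, had derived means of 14587 and 335 normalized counts in KO LSK libraries, against 28724 and 593 in WT LSK libraries, and both fell in the authors' deposited table (-0.98 ± 0.05 and -0.82 ± 0.12). In LinNeg, Ly6a rose (2.20 ± 0.28) and Kit was not called (0.36 ± 0.16) in the authors' deposited table. Many marker lists, but not all, moved with the label. Genes counted below as risen or fallen were called. Over all genes tested, 32.4% were called higher and 29.2% lower in LSK (61.6% in all). In LinNeg 22.1% were called higher and 19.3% lower (41.4% in all). A count near these shares is no result about a list. The summed derived mean of 7 neural genes was 2654 in KO against 21.3 in WT LSK libraries. In LinNeg libraries the summed derived mean was 3180 in KO against 904 in WT. That of 9 erythroid genes was 68928 in KO against 11252 in WT LSK libraries, with Hba-a1 and Hbb-bt at or near 0, and 55600 in KO against 12041 in WT LinNeg libraries. Transcripts of the seminal vesicle (3 genes) summed to 51767 in KO against 71.2 in WT LinNeg libraries and were at 0 in LSK. Of 8 stem cell genes 7 fell in LSK, where the 8 summed to 6667 in KO against 42517 in WT libraries. In LinNeg 2 of the 8 rose and 3 fell. Neutrophil genes summed to 171673 in KO against 61165 in WT LSK libraries (8 of 9 rose), but to 4571 in KO against 86934 in WT LinNeg libraries (7 of 8 tested fell). All 7 monocyte and dendritic genes fell in LinNeg, to a sum of 773 in KO against 60190 in WT libraries. In LSK they summed to 4872 in KO against 5904 in WT libraries (of 6 tested, 1 rose and 2 fell). Mast, basophil and eosinophil genes summed to 8013 in KO against 2389 in WT LSK libraries (6 of 7 rose) and to 32278 in KO against 224682 in WT LinNeg libraries (2 rose, 3 fell). Megakaryocyte genes summed to 3387 in KO against 10240 in WT LSK libraries (5 of 5 fell) and to 4887 in KO against 21650 in WT LinNeg libraries (4 of 5 fell). B cell genes summed to 347 in KO against 355 in WT LSK libraries (of 5 tested, 0 rose and 1 fell). In LinNeg they summed to 332 in KO against 255 in WT libraries, but of 5 tested 0 rose and 2 fell. Their median log2 fold change there was -2.61. That LinNeg sum is led by Cd79a, at 304 in KO against 151 in WT libraries and not called. T and NK cell genes summed to 2649 in KO against 2461 in WT LSK libraries (of 4 tested, 0 rose and 1 fell). In LinNeg they summed to 6254 in KO against 7411 in WT libraries (of 3 tested, 1 rose and 1 fell). Endothelial and stromal genes summed to 1792 in KO against 4074 in WT LSK libraries (of 5 tested, 0 rose and 1 fell). In LinNeg they summed to 78135 in KO against 143478 in WT libraries (of 5 tested, 0 rose and 3 fell). That LinNeg sum is led by Col1a1, at 74878 in KO against 114997 in WT libraries and not called. In these bulk samples, fewer cells of a type and less RNA per cell cannot be told apart.

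Mt1 and Mt2 were far higher in libraries labelled KO in both populations, and by similar amounts. Slc39a8, which brings zinc, manganese and cadmium into cells, was also higher in both, by 2.08-fold in LSK and 4.41-fold in LinNeg. The activator Mtf1 and the exporter Slc30a1 were modestly higher in KO LSK libraries, and the importer Slc39a10 was lower there. In LinNeg the last 3 genes stood closer to 0 and were not called. Of the 6 genes, 5 were called higher and 1 lower in LSK, where 61.6% of 16482 genes tested were called (32.4% higher, 29.2% lower). In LinNeg 3 were called higher and 0 lower, where 41.4% of 17108 genes were called (22.1% higher, 19.3% lower). That split depends on the centring: 3781 genes were higher and 3307 lower in LinNeg as deposited. Relative to the median of all genes, 2853 were higher and 4370 lower. That median was 0.20, but -0.018 over genes with a mean of at least 100.

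Mt1 (ENSMUSG00000031765.8, chromosome 8, 94179082 to 94180327, plus strand, mm10) had a derived mean of 3658 normalized counts in KO LSK libraries, against 273 in WT LSK libraries. The authors' deposited table gave a log2 fold change of 3.74 ± 0.25 (standard error), a 13.4-fold difference with a 95% interval from the standard error of 9.56 to 18.8. In LinNeg the derived mean was 2996 in KO libraries, against 242 in WT libraries. There the authors' deposited table gave 3.63 ± 0.26, a 12.4-fold difference (95% interval 8.71 to 17.6). The Mt1 transcript was thus about an order of magnitude more abundant under the KO label in each population.

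Mt2 (ENSMUSG00000031762.7, chromosome 8, 94172664 to 94173568, plus strand), the paralog that ends 5513 bases upstream of Mt1, showed a wider gap. Its derived mean was 3047 normalized counts in KO LSK libraries, against 145 in WT LSK libraries. The authors' deposited table gave 4.40 ± 0.30, or 21.1-fold (95% interval 13.99 to 31.8). In LinNeg the derived mean was 3203 in KO libraries, against 122 in WT libraries, and the authors' deposited table gave 4.72 ± 0.28, or 26.3-fold (95% interval 17.9 to 38.7). The log2 fold change of Mt2 exceeded that of Mt1 by 0.65 in LSK and by 1.09 in LinNeg; these differences come from the same libraries and were not tested. In normalized counts, not divided by length, Mt2 over Mt1 was 0.83 in KO and 0.53 in WT LSK libraries, and 1.07 in KO and 0.50 in WT LinNeg libraries. The sum of both genes was 16.1-fold higher in LSK and 17.0-fold higher in LinNeg.

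**Figure D2:**
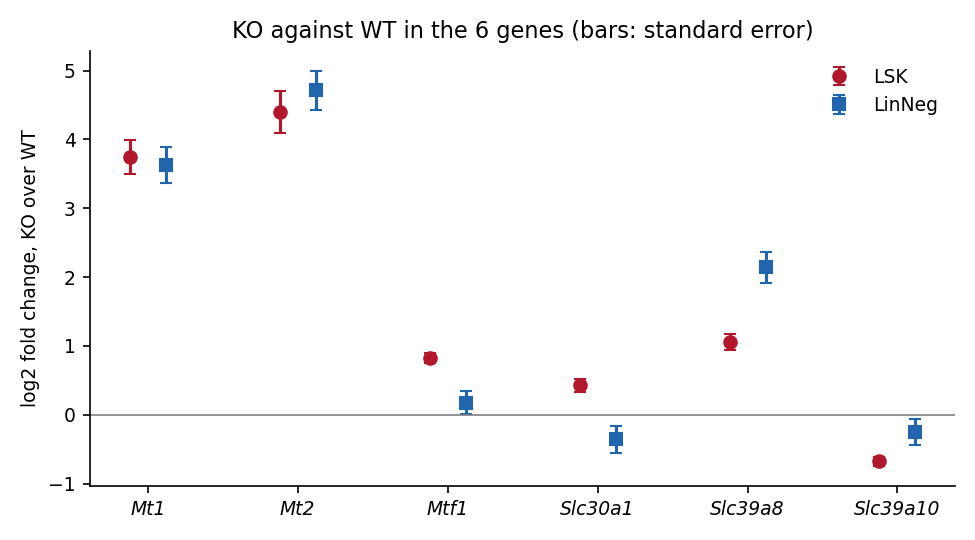
The authors' log2 fold changes, KO over WT, of the 6 genes in LSK (circles) and LinNeg (squares); bars are standard errors from 3 libraries a group. Mt1 and Mt2 lie between 3.63 and 4.72 in both populations, while Mtf1, Slc30a1 and Slc39a10 lie between -0.68 and 0.82.

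By log2 fold change Mt2 ranked 422 and Mt1 660 of 16482 genes in LSK, and 742 and 1063 of 17108 in LinNeg. By the Wald statistic, which divides the fold change by its standard error, Mt2 ranked 340 and Mt1 305 in LSK, and 7 and 13 in LinNeg. In LinNeg most genes above them by fold change had larger standard errors relative to it. Of 10065 genes with a mean of 100 or more in each table, predicted genes left aside, 8 had log2 fold changes at or above the lower metallothionein value in both. Besides Mt1 and Mt2 these were Apol11b, Cma1, Mcpt4, Rnf128, Tpsb2 and Xist, named after their values were seen; Cma1, Mcpt4 and Tpsb2 are mast cell proteases, but of the same cell group Cpa3 (-2.82), Mcpt8 (-3.77) and Ms4a2 (-2.72) fell in LinNeg in the authors' deposited table.

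The counting could mix some reads at these loci. Of the 554 distinct 50-base stretches of annotated Mt2 transcripts, 45.8% also occur, on either strand, in Gm45774, a gene annotated on the opposite strand over Mt2, which has no row in either table. Of the Mt1 stretches of that length 0 of 1292 occur in another gene, so Mt1 and Mt2 share none. The labels do not say whether the libraries kept the strand. Mtf1 overlaps the opposite-strand gene 1110065P20Rik, whose mean was 151 in LSK and 128 in LinNeg in the authors' deposited tables, and Slc30a1 overlaps 1700034H15Rik, at 12.1 and 14.3.

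Mtf1 (ENSMUSG00000028890.13, chromosome 4, 124802104 to 124849800, plus strand), which encodes the metal-sensing transcription factor itself, had a derived mean of 2284 normalized counts in KO LSK libraries, against 1290 in WT LSK libraries. The authors' deposited table gave 0.82 ± 0.07 (1.77-fold). In LinNeg the derived means were 2557 in KO and 2266 in WT libraries, with a log2 fold change of 0.17 ± 0.17 in the authors' deposited table, which was not called. That value turned to -0.024 when fold changes were recentred on the median of all genes. This median stood at 0.20 in LinNeg and at 0.056 in LSK. Over genes with a mean of at least 100 it was -0.018 in LinNeg and 0.032 in LSK. Recentred on the latter, all 6 genes kept direction and call.

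Slc30a1 (ENSMUSG00000037434.7, chromosome 1, 191906767 to 191913247, plus strand) encodes ZnT1, which exports zinc across the plasma membrane and is a target of MTF1. Its derived mean was 832 normalized counts in KO and 618 in WT LSK libraries, and the authors' deposited table gave 0.43 ± 0.10 (1.35-fold). In LinNeg the derived means were 595 in KO and 760 in WT libraries, with -0.35 ± 0.20 in the authors' deposited table, not called. Relative to the median of all LinNeg genes the value was -0.55, which is called (adjusted p = 0.0145, normal test on the recentred DESeq2 values). Recentred on genes with a mean of at least 100, it stayed uncalled. Slc30a1 was thus 1 of the 2 genes here, with Mtf1, whose direction was not shared by both populations under every centring tried.

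Slc39a8 (ENSMUSG00000053897.15, chromosome 3, 135825279 to 135888572, plus strand) encodes the importer ZIP8. Its derived mean was 1299 normalized counts in KO and 624 in WT LSK libraries, with 1.06 ± 0.11 in the authors' deposited table. In LinNeg it was 2253 in KO and 511 in WT libraries, with 2.14 ± 0.23 in the authors' deposited table. It was the third largest fold change of the 6 in each population.

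Slc39a10 (ENSMUSG00000025986.6, chromosome 1, 46807544 to 46892852, minus strand) encodes the importer ZIP10, known for supporting lymphocyte survival. Its derived mean was 1784 normalized counts in KO LSK libraries, against 2849 in WT LSK libraries, and the authors' deposited table gave -0.68 ± 0.07, a level in KO of 0.626 of that in WT. In LinNeg the derived means were 996 in KO and 1184 in WT libraries, with -0.25 ± 0.19 in the authors' deposited table, not called. Relative to the median of all LinNeg genes it was at -0.45 and called (adjusted p = 0.049, normal test on the recentred DESeq2 values). Recentred on genes with a mean of at least 100, it stayed uncalled. It was the 1 gene of the 6 with a lower value in KO in both populations.

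**Figure D3:**
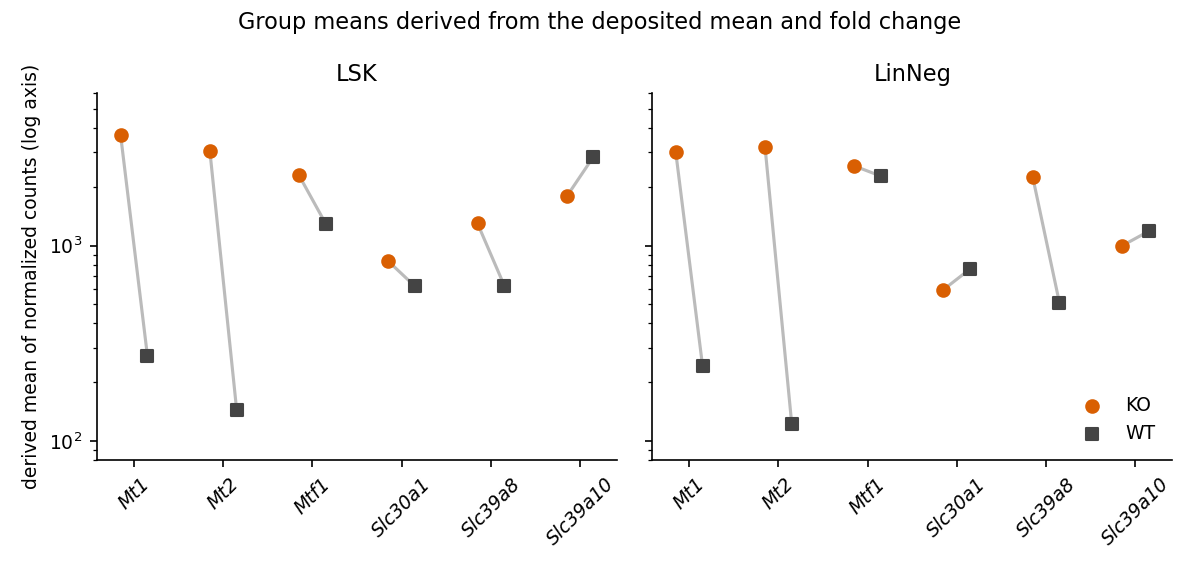
Derived group means of the 6 genes in normalized counts (log axis), KO circles left of WT squares, in LSK and LinNeg; lines join the 2 groups of a gene. Under the WT label Mt1 and Mt2 have the lowest means of the 6 in both panels (122 to 273), and under the KO label the highest (2996 to 3658). These counts are not divided by length, and per kilobase of exon Mt1 and Mt2 were not the lowest under the WT label.

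Levels of different genes were compared per kilobase of annotated exon. Under the KO label, Mt2 stood first (5182 normalized counts per kilobase in LSK, 5448 in LinNeg) and Mt1 second (2936 and 2404), well above the other 4 genes, which ran from 159 to 293 in LSK and from 113 to 294 in LinNeg. Under the WT label the order differed: Slc39a10 stood first in LSK at 468, before Mt2 at 246, Mt1 at 219, Mtf1 at 145, Slc30a1 at 118 and Slc39a8 at 81.4. In WT LinNeg libraries Mtf1 stood first at 254, before Mt2 at 207, Mt1 at 194, Slc39a10 at 194, Slc30a1 at 145 and Slc39a8 at 66.6. With no values per library, neighbours in these orders cannot be told apart by their spread, and the exon length of Mt1 (1246 bases) takes in its long isoform.

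The effects in the 2 populations were set against each other as the log2 fold change in LSK minus that in LinNeg. The LSK samples alone carry the label BMT. The Y-linked genes also differed between KO and WT far more in LSK than in LinNeg. A difference between the populations cannot be told apart from either of these. For Mt1 the difference was 0.12 ± 0.36 (95% interval -0.59 to 0.82) and for Mt2 -0.32 ± 0.41 (-1.13 to 0.49), so differences of up to about 1 log2 unit in Mt2 remain within the intervals. Mtf1 had a difference of 0.65 ± 0.18 and Slc30a1 one of 0.78 ± 0.22, both toward LSK. Slc39a8 had one of -1.08 ± 0.25, toward LinNeg, and Slc39a10 one of -0.43 ± 0.20. Over all 17397 genes with a p in both tables, 28.3% were called different by the normal test with Benjamini-Hochberg adjustment.

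**Figure D4:**
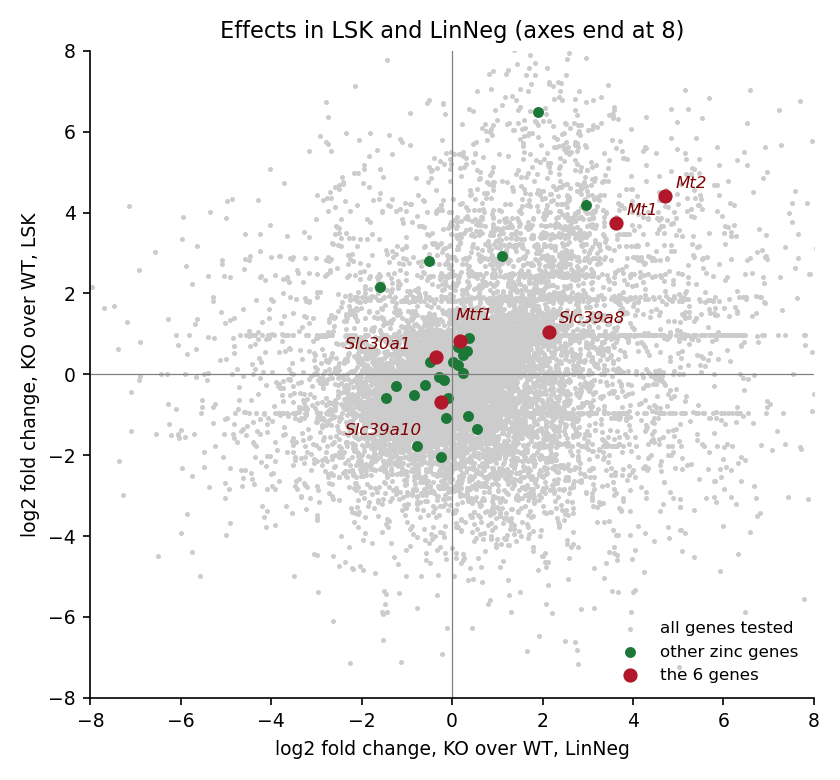
Log2 fold change, KO over WT, in LinNeg (x) and LSK (y) for all genes tested in both tables (grey), 25 other zinc genes with a mean of at least 10 in a table (green) and the 6 genes (red, named); both axes end at 8. Mt1 and Mt2 sit at the upper right, and Slc30a1 is at 0.43 in LSK and -0.35 in LinNeg.

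By fold change in the 2 comparisons, the genes nearest to Mt1 were Bex4 (Euclidean distance 0.35 log2 units), the red cell anion exchanger Slc4a1 (0.35) and Atp1b2 (0.43). Nearest to Mt2 were Rnf128 (1.06), Atp1b2 (1.08) and Mt1 (1.27). Mtf1 lay nearest to Emc4, Fmc1 and Cox6b1, all within 0.021, and Slc30a1 to Dctn6, Rpp21 and Fam3c, within 0.013. Slc39a8 lay nearest to Thop1 (0.088), the erythroid gene Hemgn (0.11) and Maoa (0.13), and Slc39a10 to Zc3h7b, Map3k2 and Plag1, within 0.024. These distances rest on 2 values a gene and take no account of standard errors. In LinNeg the standard errors of Mtf1 (0.17) and Slc30a1 (0.20) were far larger than the distances given for them. Which genes lie nearest is therefore uncertain.

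The protein-coding genes around the metallothionein cluster on chromosome 8 are given next. Of 8 such neighbours within 250 kilobases, 6 had a mean of at least 100 in LSK, with log2 fold changes of -0.28 to 0.84 (4 called higher, 1 lower). In LinNeg 7 did, from -0.40 to 1.94 (2 higher, 0 lower). Over all genes tested 61.6% were called in LSK and 41.4% in LinNeg, so these counts of 5 of 6 and 2 of 7 are no result about the locus. The nearest expressed neighbour, the nuclear pore gene Nup93, was at 0.84 ± 0.05 in LSK and 0.94 ± 0.22 in LinNeg in the authors' deposited tables. Gnao1, a G protein gene abundant in brain, was at 1.94 ± 0.35 in LinNeg in the authors' deposited table. In LSK it was called higher at a mean of 25.5, with derived means of 49.7 in KO and 1.30 in WT libraries. That WT level is near 0, so no fold is given.

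Mt3, the brain metallothionein, was scarce, and Mt4, of squamous epithelium, was at 0 in both tables. Mt3 had a mean of 8.19 normalized counts in LSK, with derived means of 16.2 in KO and 0.18 in WT libraries, and it rose in the authors' deposited table (DESeq2 adjusted p = 1.16e-05). The WT level is near 0, so no fold is given. In LinNeg the derived means were 30.6 in KO and 8.20 in WT libraries, not called (DESeq2 adjusted p = 0.164 in the authors' deposited table). Among the 7 neural genes, 7 were called higher in LSK and 5 in LinNeg; in LSK their derived means were 64.1 to 923 in KO and 0.18 to 9.56 in WT libraries, too near 0 in WT for exact folds, and in LinNeg their log2 fold changes were 0.47 to 2.85. For comparison the derived KO means of Gfap, an astrocyte marker, were 358 in LSK and 256 in LinNeg libraries. The part of neural transcripts, of the blood cell lists and of sex in the metallothionein values was not tested.

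Other zinc genes moved in both directions. Of 29 genes listed from the Slc30 and Slc39 families, the other metallothioneins and further targets of MTF1, 24 had an adjusted p in LSK, of which 12 rose and 8 fell (median log2 fold change 0.14, against 0.042 over all genes). In LinNeg 27 had one, of which 2 rose and 7 fell (median 0.017, against 0.16 over all genes). Genes that passed the filter on low means only through the group where they are high are among these. As a share, 20 of 24 were called in LSK and 9 of 27 in LinNeg, beside 61.6% and 41.4% of all genes.

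Among the other exporters, 5 rose and 2 fell of 7 tested in LSK, and 0 rose and 2 fell of 8 in LinNeg. Slc30a4, which loads zinc into vesicles, fell to a derived mean of 270 in KO LSK libraries, against 1119 in WT LSK libraries (log2 fold change -2.05 ± 0.16, DESeq2 adjusted p = 1.24e-38 in the authors' deposited table). Slc30a2 was opposite in the 2 populations: 37.8 in KO against 8.47 in WT LSK libraries (2.16 ± 0.52, DESeq2 adjusted p = 7.6e-05) and 109 in KO against 330 in WT LinNeg libraries (-1.59 ± 0.44, DESeq2 adjusted p = 0.0011, both from the authors' deposited tables). Its difference, LSK minus LinNeg, was 3.75 ± 0.68 (adjusted p = 4.68e-07, normal test). That difference rests in part on the low WT level in LSK. Slc30a5, of the early secretory pathway, was also called in opposite directions, at 0.30 ± 0.07 in LSK and -0.50 ± 0.14 in LinNeg in the authors' deposited tables. Slc30a10, a manganese exporter, rose in LSK by 2.81 ± 0.65 on the log2 scale at low levels (a derived mean of 30.03 in KO, against 4.29 in WT libraries) in the authors' deposited table. Slc30a6 (0.47) and Slc30a9 (0.23) rose and Slc30a7 (-0.59) fell in LSK in the authors' deposited table. Slc30a3 had a mean under 10 in both tables and Slc30a8 was at 0.

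Among the other importers, 3 rose and 4 fell of 11 tested in LSK, and 0 rose and 3 fell of 12 in LinNeg. Slc39a6, Slc39a11 and Slc39a1 fell in both populations, under every centring tried. In the authors' deposited tables Slc39a6 was at -0.59 ± 0.07 in LSK and -1.46 ± 0.20 in LinNeg, Slc39a11 at -0.51 ± 0.07 and -0.85 ± 0.19, and Slc39a1 at -0.28 ± 0.07 and -0.59 ± 0.17. Slc39a14, closely related to Slc39a8 and also a carrier of manganese and iron, fell in LSK to a derived mean of 465 in KO libraries, against 989 in WT libraries (-1.09 ± 0.14 in the authors' deposited table), where Slc39a8 was higher. Slc39a7, which releases zinc from the endoplasmic reticulum, rose in LSK (0.68 ± 0.06), as did Slc39a3 (0.30 ± 0.09), in the authors' deposited table. The third rise was Slc39a12, with a mean of 3.38. Slc39a2, Slc39a4, Slc39a9 and Slc39a13 were called in neither table. Slc39a9 did pass in both relative to the median of all genes (-0.12 in LSK, -0.49 in LinNeg). Slc39a5 had means of 0.33 and 2.85.

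**Figure D5:**
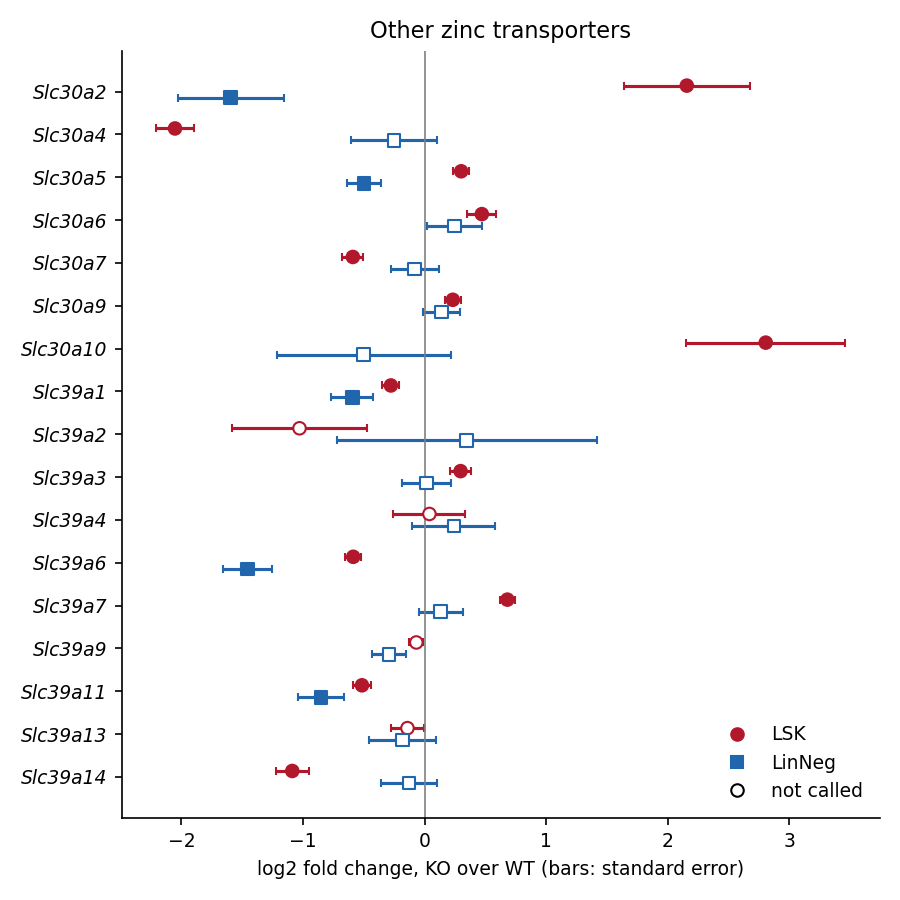
Log2 fold change, KO over WT, with standard errors, of the other Slc30 and Slc39 transporters with a mean of at least 10 in a table, LSK (circles) above LinNeg (squares); filled symbols passed an adjusted p of 0.05 in the authors' tables. Slc39a12 (mean 12.1 in LinNeg) is left out for its wide error. Slc30a2 lies at 2.16 in LSK and -1.59 in LinNeg.

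The further genes reported as MTF1 targets split. The iron exporter Slc40a1 rose in both, to a derived mean of 3284 in KO against 431 in WT LSK libraries and 1483 in KO against 688 in WT LinNeg libraries (2.93 ± 0.26 and 1.11 ± 0.24 in the authors' deposited tables). Gclc, which makes the first step of glutathione synthesis, rose by 0.90 ± 0.06 in LSK and 0.38 ± 0.15 in LinNeg in the authors' deposited tables. Ndrg1 fell by 1.78 and by 0.78, and Csrp1 fell by 0.30 and by 1.24 on the log2 scale, in LSK and LinNeg in the authors' deposited tables. Selenow rose in LSK (0.57 ± 0.07 in the authors' deposited table), and Pgf was called in neither.

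Lists of pathways that also bear on metallothioneins were mixed. Of 13 copper genes, 9 rose and 1 fell in LSK (median 0.58), and 4 rose and 2 fell in LinNeg (median 0.37). In the authors' deposited tables the copper pump Atp7b was at 3.05 ± 0.30 in LSK and 2.93 ± 0.23 in LinNeg. The related Atp7a was at -1.68 ± 0.10 in LSK and -0.99 ± 0.22 in LinNeg. Superoxide dismutase Sod1 was at 0.82 ± 0.06 in LSK and 0.43 ± 0.17 in LinNeg. Of 12 genes of the NRF2 oxidative stress response, 8 rose and 1 fell in LSK (median 0.82), and 4 rose and 3 fell in LinNeg (median 0.22). The glutathione enzyme subunit Gclm rose in both (1.22 ± 0.05 and 1.76 ± 0.20) in the authors' deposited tables. There Gsr rose in LSK (1.40 ± 0.06) and fell in LinNeg (-0.90 ± 0.15). Txnrd1 rose in LinNeg (1.24 ± 0.19) and was not called in LSK (-0.10 ± 0.06). Of 9 glucocorticoid response genes, 3 rose and 5 fell in LSK (median -0.44) and 3 rose and 2 fell in LinNeg (median 0.41). In LSK and LinNeg in the authors' deposited tables, Klf9 was at 0.96 ± 0.08 and 0.95 ± 0.24. Tsc22d3 was at -1.39 ± 0.11 and -0.95 ± 0.36, and Zbtb16 at -0.73 ± 0.09 and -1.62 ± 0.24. Of 6 heat shock genes, 1 rose in LSK (median 0.35) and 4 in LinNeg (median 1.63), and 0 fell. The chaperone Hsph1 was at 1.12 ± 0.09 in LSK and 1.75 ± 0.20 in LinNeg and Hspa1b at 1.98 ± 0.36 in LinNeg in the authors' deposited tables. Each median stands beside 0.042 in LSK and 0.16 in LinNeg over all genes tested, and each count beside 61.6% called in LSK and 41.4% in LinNeg. The 6 of 13 copper genes called in LinNeg are close to that share.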

How the data were processed

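Libraries were made from total RNA of lineage-depleted, flow-sorted marrow cells after depletion of ribosomal RNA, with a NEBNext Ultra II kit, per the labels' protocols. The submitters' processing notes name HISAT2, SAMtools 1.10, StringTie, DESeq2 and mm10; no source names the program that counted reads, or its annotation. Per the file headers, the deposited tables hold the authors' mean of normalized counts (a signal on a linear scale), the log2 fold change with its standard error, a Wald statistic (a score), a p-value and an adjusted p-value. Each table had 24542 rows; 5 that name no gene (reads without a feature were 26.4% of the LSK and 38.0% of the LinNeg total) and 4 with repeated symbols were left out. To regain digits, each log2 fold change was taken as the product of the Wald statistic and the standard error, within 0.005 of the deposited value. Depth per library is unknown, and counting intervals are not given.

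The difference test between populations divides the difference of log2 fold changes by its standard error, combined from both tables, and takes a two-sided p from the normal distribution, with Benjamini-Hochberg adjustment over all genes. On simulated data with the standard errors of 17397 genes it called 62.0% of 200 genes changed 4-fold and 4 unchanged genes. The simulated noise was drawn with the same standard errors that the test divides by. The few unchanged genes called were thus all but fixed in advance, and the error rate in these data was not measured. The members and lists were chosen with earlier results of these data known. Named were the 6 genes, other zinc genes with a mean of at least 10 that were called, and up to 2 genes per related list and table. For likeness, the 3 nearest genes were taken among those with a mean of 100 or more in each table; exceptions are said to be chosen after their values were seen, as are the chromosome 8 neighbours and the marker genes. Alternatives were 2 recentrings, adjustment over every gene with a p-value, a mean of at least 100, and an adjusted p under 0.01. Coordinates are from GENCODE M21, and promoters from RefSeq, which held all 6 genes. Tables were computed with scipy 1.17.1, numpy 2.4.6 and pandas 2.3.3 under Python 3.11.15, and figures drawn with matplotlib 3.10.9.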

Additional observations from a re-analysis of the deposited data

Results flagged for a closer look

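The effect of the KO label differed between LSK and LinNeg, by the normal test of the difference with Benjamini-Hochberg adjustment over all genes, for 21 of the 37 named genes considered. Many of these were named because they were called in a table, so that count is not set against all genes; over the whole list of other zinc genes, 9 were higher in LSK and 3 lower of 27 tested, beside 28.3% of all genes that differed. Values are the log2 fold change in LSK minus that in LinNeg, both from the authors' tables. A population difference cannot be told apart from the BMT label of the LSK samples or from the unequal sex split. Among the 6 genes, which were chosen with these contrasts known, the differences were 0.65 for Mtf1, 0.78 for Slc30a1 and -1.08 for Slc39a8. Among the other zinc transporters and Mt3, the effect stood higher in LSK for Mt3 (4.59), Slc30a2 (3.75), Slc30a5 (0.80), Slc30a10 (3.31), Slc39a6 (0.87) and Slc39a7 (0.55), and lower for Slc30a4 (-1.80) and Slc39a14 (-0.96). Mt3, Slc30a2 and Slc30a10 rest on low means in LSK (8.19, 23.1 and 17.2 normalized counts in the authors' deposited table). The Mt3 value is no measured difference, since its derived WT mean in LSK was 0.18 and it passed the filter there through the KO libraries.

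Among the MTF1 targets the differences were -0.9996 for Ndrg1, 0.94 for Csrp1, 1.82 for Slc40a1 and 0.52 for Gclc. In the related lists they were -0.69 for Atp7a, 2.30 for Gsr, -0.54 for Gclm, -1.35 for Txnrd1, 0.89 for Zbtb16 and -0.62 for Hsph1. Gsr, glutathione reductase, had the smallest adjusted p of these (5.9e-42), with log2 fold changes of 1.40 in LSK and -0.90 in LinNeg in the authors' deposited tables.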

How the results depend on the processing

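Of 497 values recomputed under the 5 alternatives run, 476 were rated the same. For a gene this means that it kept its direction and its side of the threshold. For a count of called genes, it means that the count stayed within a set ratio of the main one. Recentring on the median of all genes, which shifted LinNeg by 0.20, turned Mtf1 in LinNeg to -0.024, Slc30a9 to -0.060, Slc39a3 to -0.18 and Slc39a7 to -0.066 there, and Slc39a4 in LSK to -0.016. It brought Slc30a1 (-0.55) and Slc39a10 (-0.45) in LinNeg past the threshold. The number of other zinc genes called higher in LinNeg dropped to 1 under this recentring and to 1 with an adjusted p under 0.01, where Gclc was lost. Recentring on genes with a mean of at least 100 turned the difference for Slc39a13 to -0.0082. Mt1, Mt2 and Slc39a8 kept direction and call in both tables under all 5. This outcome was all but fixed, since only the 2 recentrings alter fold changes, by at most 0.20. No paired analysis was possible because the deposited tables hold no values per library; for the same reason edgeR, other size factors and leaving out single libraries were not run. Depth per library is unknown; Mt3, Slc30a3, Slc39a5 and Slc39a12 had a mean under 10 in LSK, and Slc30a3 and Slc39a5 in LinNeg too.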
